A study of Mus musculus with 16 samples.

Results

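The 10 genes described here are the Fos family (Fos, Fosb, Fosl1 and Fosl2), the Jun family (Jun, Junb and Jund) and 3 further early response genes (Egr1, Atf3 and Ier3). They were chosen by gene symbol, not by their measured values. Each was found in 1 row of the 23282 rows of every count table, and all 10 passed the filter on low counts, as did 14854 rows in all.

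AP-1 is a dimeric transcription factor that a Jun protein forms with itself or with a Fos or ATF protein. Many of its subunits are immediate early genes, whose transcription starts within minutes of growth factor, stress or injury signals, without new protein synthesis, and whose RNA is short-lived. In epidermis, AP-1 proteins take part in keratinocyte proliferation, differentiation and the response to wounding and irritation.

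RNA was measured in the dorsal skin of 16 male wild-type (WT) C57BL/6N mice, bought at 3 weeks of age, with 4 mice and 4 libraries in each of 4 groups. Cont mice ate normal chow. LowAhR mice ate a diet low in ligands of AhR, the aryl hydrocarbon receptor, a transcription factor that senses dietary and microbial compounds, for 12 weeks, and were kept on paper bedding free of such ligands, so that diet and bedding cannot be told apart. LowAhR+AD mice ate the same diet and received 1% DNCB, a hapten used to provoke dermatitis resembling atopic dermatitis (AD), on the dorsal skin 2 times per week for 10 weeks. LowAhR+AD+BJ mice received the same diet and DNCB and, by mouth, BJIKT (Bojungikgi-tang, a herbal medicine) at 1 g/kg per day. There was no group with DNCB on normal chow among these samples, so LowAhR+AD against Cont joins diet and DNCB, which cannot be told apart there. The sources used here do not say whether skin without DNCB received the solvent.

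In QuantSeq only the 3′ end of a messenger RNA is read, with about 1 fragment for each transcript, long or short. Levels are given in CPM, counts scaled by library total and TMM factor, and were therefore not divided by gene length. Library totals were 7080508 to 8051425 counts in Cont, 7436315 to 8773876 in LowAhR, 11336051 to 13467477 in LowAhR+AD and 10614393 to 12999055 in LowAhR+AD+BJ, so that both DNCB groups were deeper than both other groups with no overlap. LowAhR replicate 4 stood apart with the highest share of the ribosomal transcript Rn45s (8.48% of its counts) and the highest summed hair follicle markers of its group (13830 CPM, where the group's median was 2750). LowAhR+AD replicate 1 stood apart with summed fibroblast markers of 3967 CPM, the lowest of all libraries, and with 38.2% of 1129 genes examined at a count of 0. Those genes were the ones for which the other replicates of its group predicted counts well above 0, not all tested genes. Over genes chosen in the same way for each library, at most 13.6% were at 0 in any other library. Where a named result lost or gained a call, or moved by more than 1.5 times, without one of these libraries, the value without it is given.

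Promoter sequences are shown for Fos and Atf3, which were lower in LowAhR+AD than in Cont and whose windows lay wholly before the gene. The 250 bases before the start, from the RefSeq promoter table of GRCm38.p6, are printed 5′ to 3′ on the gene's strand, with TGACG, which forms one side of the cyclic AMP response element, in capitals on either strand (CGTCA where it lies on the other strand). The window of Fos is chr12:85473640-85473889 on the plus strand and that of Atf3 is chr1:191183334-191183583 on the minus strand.
Fos: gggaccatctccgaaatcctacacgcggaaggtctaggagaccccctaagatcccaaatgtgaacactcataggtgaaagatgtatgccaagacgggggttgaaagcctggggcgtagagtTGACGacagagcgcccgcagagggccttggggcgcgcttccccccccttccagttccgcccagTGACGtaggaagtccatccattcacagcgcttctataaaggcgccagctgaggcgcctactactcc
Atf3: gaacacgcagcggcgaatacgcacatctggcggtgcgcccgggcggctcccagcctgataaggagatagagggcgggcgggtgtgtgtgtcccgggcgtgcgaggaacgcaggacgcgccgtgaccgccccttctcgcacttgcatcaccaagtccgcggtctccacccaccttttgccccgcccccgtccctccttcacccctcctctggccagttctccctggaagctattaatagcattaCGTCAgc
TGACG was found in 4 of the 8 member windows given (Fos, Fosb, Junb and Atf3) and in 17.7% of all 32817 promoter windows of the same length. In Fos it began 129 and 66 bases before the start. In Fosb it began 60 bases before the start, in a window that overlapped the gene's transcribed interval and is not printed. GCGTG, the core of the AhR response element, was found in 3 of the 8 (Fos, Junb and Atf3) and in 28.1% of all windows. The full element TGACGTCA was in 0 of the 8 and in 1.55% of all windows. TGANTCA, a loose form of the AP-1 element with any base at N, was in 0 of the 8 and in 6.75%. The CArG box, the serum response element's core, was in 0 of the 8 and in 1.47%. The element TATAAA was found in Fos and in 12.4% of all windows. Both strands were searched, TGACG is contained in TGACGTCA, and the motifs were chosen after the sequences were seen. These letters are a description of the windows and not of binding. Sequence outside the 250 bases was not searched, so an element missing from a window may lie elsewhere near the gene.

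**Figure D1:**
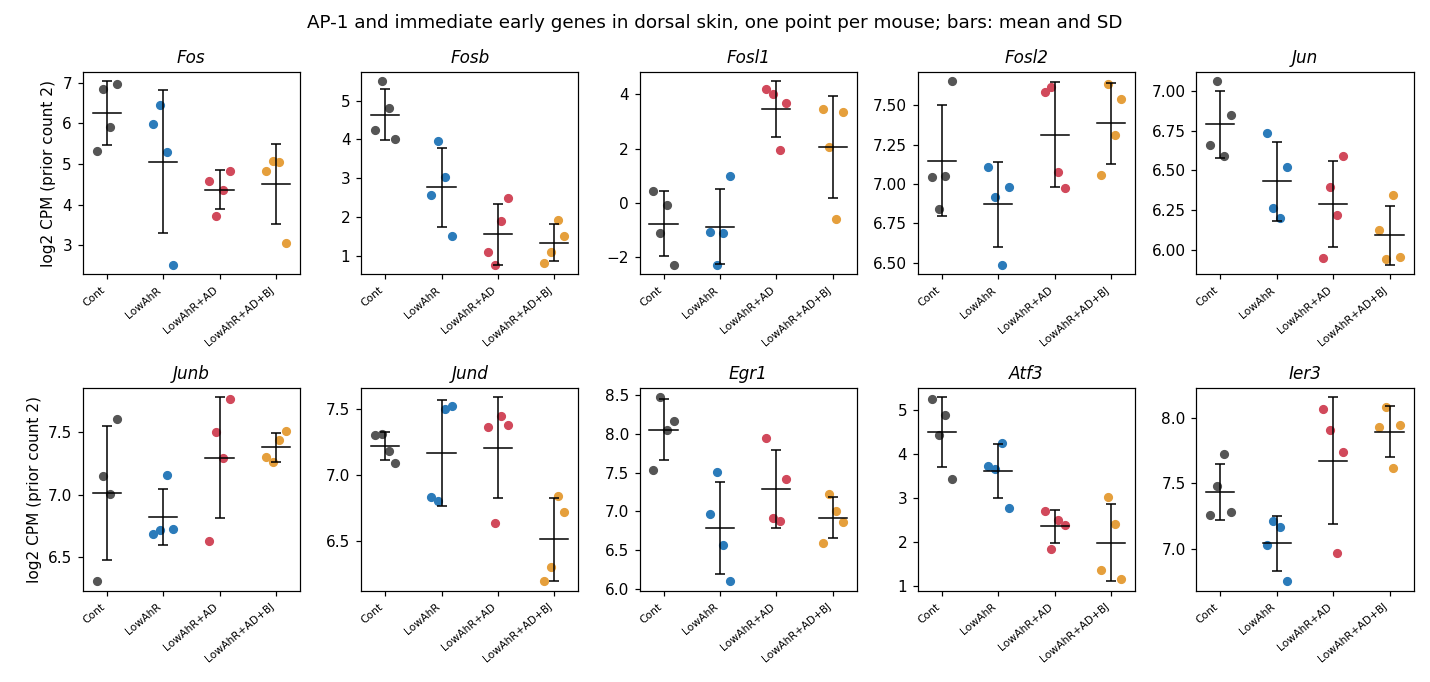
TMM-scaled log2 CPM (prior count 2) of the 10 genes in each of the 16 libraries, by group, with the mean and SD of the log2 values. The levels of Fosl1 are the highest in LowAhR+AD, where the lowest library is at 3.65 CPM (1.95 on the log2 scale shown), and those of Fosb are lower in every DNCB-treated library than in every Cont library.

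The first comparison asked what the low AhR ligand diet, with its bedding, changed without DNCB. LowAhR against Cont gave 0 of the 10 genes at a Benjamini-Hochberg adjusted p under 0.05 with edgeR, where 0% of all tested genes were called. At an unadjusted p under 0.05 the count was 2 (Fosb and Egr1, both lower), where 13.7% of all genes passed. DESeq2 called the same 2 genes and limma voom 0, and over all genes DESeq2 called 491 and limma voom 0. The fitted log2 fold change was below 0 for 9 of the 10 genes, with a median of -0.38 beside 0.026 over all tested genes. The groups did not overlap for 3 genes, all lower in LowAhR (Fosb, Egr1 and Ier3), where 5.63% of all tested genes were lower without overlap.

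LowAhR+AD against LowAhR asked what DNCB added to the diet. With edgeR, 1 of the 10 genes was called, Fosl1, which rose, where 12.6% of all tested genes were called (6.42% higher and 6.21% lower). Higher without overlap was Fosl1, where 8.92% of all genes were, and lower without overlap was Atf3, where 9.85% were. The median log2 fold change of the 10 genes was 0.24, beside 0.038 over all tested genes. LowAhR+AD against Cont gave 4 called genes, where 21.8% of all genes were called (12.3% higher and 9.47% lower): Fosl1 rose, and Fos, Fosb and Atf3 fell. These 4 were also the ones that did not overlap between the groups, where 24.7% of all genes did not. These comparisons share libraries and are not independent.

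LowAhR+AD+BJ against LowAhR+AD asked what BJIKT added. With edgeR, 0 of the 10 genes were called, where 0% of all genes were, and DESeq2 and limma voom also called 0 of the 10. The count at an unadjusted p under 0.05 was 1 (Jund, lower), where 9.46% of all genes passed, and over all genes DESeq2 called 17 and limma voom 0. None of the 10 genes was without overlap, where 5.08% of all genes were. LowAhR+AD+BJ against LowAhR joins DNCB and BJIKT, which cannot be told apart there. It gave 1 called gene, Ier3, which rose, where 6.77% of all genes were called (3.64% higher and 3.12% lower). Ier3 and Junb were higher without overlap, where 8.91% of all genes were.

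**Figure D2:**
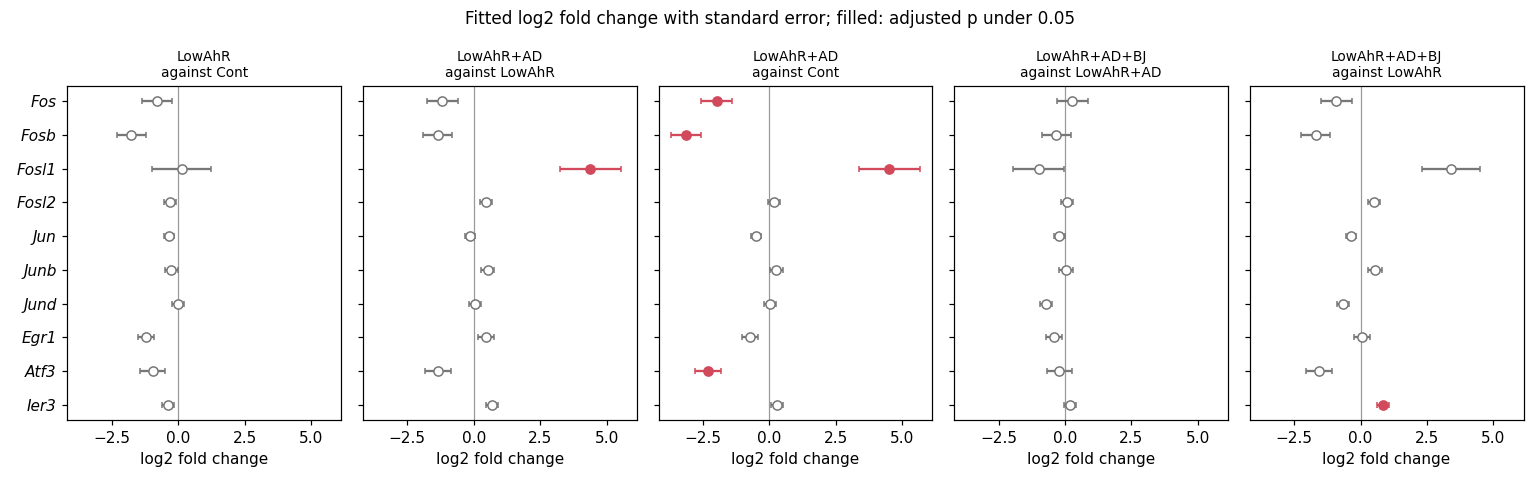
Fitted log2 fold changes with standard errors of the 10 genes in the 5 comparisons, 4 libraries a group, with filled points at an adjusted p under 0.05. The filled points are Fosl1 in both comparisons of LowAhR+AD, Fos, Fosb and Atf3 in LowAhR+AD against Cont, and Ier3 in LowAhR+AD+BJ against LowAhR.

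Fos (chr12:85473890-85477274, GRCm38.p6, plus strand) encodes the founding partner of Jun in AP-1. Its levels in replicates 1 to 4 were 39.4, 114, 59.4 and 124 CPM in Cont and 62.9, 86.5, 39.0 and 5.49 CPM in LowAhR. They were 23.6, 12.9, 20.4 and 28.2 CPM in LowAhR+AD and 28.4, 33.5, 33.1 and 8.07 CPM in LowAhR+AD+BJ. Every LowAhR+AD library was below every Cont library, whereas LowAhR spanned both, because its replicate 4 was the lowest of all 16. The mean fell from 84.2 ± 41.2 CPM (SD, n = 4) in Cont to 21.2 ± 6.44 CPM (SD, n = 4) in LowAhR+AD, with a log2 fold change of -1.99 ± 0.59 (SE, edgeR adjusted p = 0.0225). Leaving out Cont replicate 2, Cont replicate 4 or LowAhR+AD replicate 2 ended that call (edgeR adjusted p = 0.0605, 0.0655 and 0.066). Against LowAhR the log2 fold change was -1.19 ± 0.58 (edgeR adjusted p = 0.19), and without LowAhR replicate 4 it was -1.56 (edgeR adjusted p = 0.0326).

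Fosb (chr7:19302696-19310118, minus strand) encodes a close relative of Fos. In Cont it stood at 18.7, 45.4, 27.8 and 16.04 CPM in replicates 1 to 4, and in LowAhR at 5.68, 15.4, 7.94 and 2.62 CPM. In LowAhR+AD it stood at 1.91, 1.48, 3.50 and 5.38 CPM, and in LowAhR+AD+BJ at 1.55, 1.94, 3.58 and 2.62 CPM. All Cont libraries were above all other libraries. Fosb fell in LowAhR+AD against Cont by 3.13 on the log2 scale (SE 0.57, edgeR adjusted p = 0.00111), and the call held in 8 of 8 fits that each left out 1 library. For LowAhR against Cont the log2 fold change was -1.77 ± 0.54 (edgeR adjusted p = 0.134). For LowAhR+AD against LowAhR it was -1.36 ± 0.54 (edgeR adjusted p = 0.108), and without LowAhR replicate 4 it was -1.65 (edgeR adjusted p = 0.0478). LowAhR+AD+BJ against LowAhR gave -1.70 ± 0.55 (edgeR adjusted p = 0.0726), and -1.99 without LowAhR replicate 4 (edgeR adjusted p = 0.0342).

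Fosl1 (chr19:5447698-5455938), which encodes FRA-1, a Fos protein lacking the strong activation domain of Fos, was close to absent from skin without DNCB. It had 9, 2, 6 and 0 counts in Cont and 2, 0, 2 and 15 counts in LowAhR. The 0 in Cont replicate 4 allows up to 0.359 CPM and the 0 in LowAhR replicate 2 up to 0.384 CPM, for counting error only. In LowAhR+AD it had 238, 194, 47 and 157 counts, or 18.2, 15.9, 3.65 and 12.6 CPM. In LowAhR+AD+BJ it had 118, 39, 6 and 100 counts, or 10.8, 3.97, 0.467 and 10.1 CPM. All LowAhR+AD libraries were above all libraries without DNCB, while LowAhR+AD+BJ replicate 3 lay among those without DNCB.

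Fosl1 rose in LowAhR+AD against LowAhR by a log2 fold change of 4.39 ± 1.13 (SE, edgeR adjusted p = 0.0177), or 21.0-fold, and against Cont by 4.52 ± 1.14 (edgeR adjusted p = 0.00923). The call against Cont held in 8 of 8 fits that left out 1 library. The call against LowAhR held in 6 of 8 and was lost without LowAhR replicate 1 (edgeR adjusted p = 0.0549) and without LowAhR replicate 3 (edgeR adjusted p = 0.0528), and with limma voom it was at an adjusted p of 0.0527. Without LowAhR replicate 4, which held the most Fosl1 of its group, the log2 fold change was 6.07, and without LowAhR+AD replicate 1 it was 4.17. LowAhR+AD+BJ against LowAhR gave 3.40 ± 1.10 (edgeR adjusted p = 0.0699), and LowAhR+AD+BJ against LowAhR+AD gave -0.99 ± 0.96 (edgeR adjusted p = 0.77). Leaving out LowAhR replicate 4 or LowAhR+AD+BJ replicate 3 brought LowAhR+AD+BJ against LowAhR to an edgeR adjusted p of 0.026 and 0.0278.

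Fosl2, which encodes FRA-2, was the most abundant Fos gene by median share of fragments in every group. It ranged from 114 to 201 CPM in Cont, 89.2 to 138 CPM in LowAhR, 126 to 196 CPM in LowAhR+AD and 133 to 199 CPM in LowAhR+AD+BJ. All 4 groups overlapped, and the largest difference, LowAhR+AD+BJ against LowAhR, was 0.51 ± 0.23 on the log2 scale (edgeR adjusted p = 0.191).

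The ranges of the summed Fos family overlapped between the groups. Its mean was 257 ± 66.1 CPM (SD, n = 4) in Cont, 175 ± 45.7 CPM in LowAhR, 199 ± 37.4 CPM in LowAhR+AD and 204 ± 26.9 CPM in LowAhR+AD+BJ. As a share of the family's fragments, the median of Fos was 31.7% in Cont, 29.5% in LowAhR, 11.3% in LowAhR+AD and 15.2% in LowAhR+AD+BJ. The median share of Fosb was 11.2%, 4.28%, 1.48% and 1.08% in the same order. For Fosl1 it was 0.215%, 0.161%, 7.18% and 3.27%, and for Fosl2 59.5%, 66.0%, 82.3% and 82.2%. By median the family was thus mostly Fosl2 in every group, and LowAhR+AD held more Fosl1 and less Fos and Fosb than Cont. LowAhR replicate 4, without DNCB, held 92.7% Fosl2 and 4.04% Fos. In LowAhR+AD libraries Fosl2 held at most 86.6% and Fos at least 5.69%. These shares were described and not tested.

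**Figure D3:**
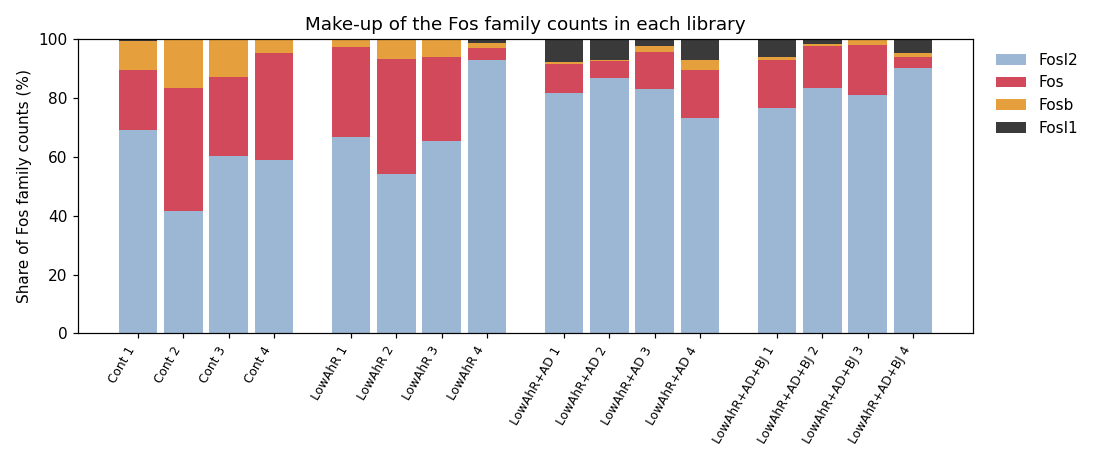
Share of the summed Fos family fragments, in percent, taken by Fos, Fosb, Fosl1 and Fosl2 in each of the 16 libraries. Fosl2 holds a median of 82.3% in LowAhR+AD, against 59.5% in Cont, and Fosl1 a median of 7.18% against 0.215%.

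The Jun genes, whose products can pair with one another or with Fos proteins, were not called in any comparison with edgeR. DESeq2 called Jun in LowAhR+AD against Cont (adjusted p = 0.0499) and Jund in LowAhR+AD+BJ against LowAhR (adjusted p = 0.0426), both lower. Jun ranged from 96.0 to 133 CPM in Cont and from 61.6 to 96.1 CPM in LowAhR+AD, ranges that met at their edges (log2 fold change -0.49 ± 0.19, edgeR adjusted p = 0.0774). Junb, a Jun protein with weaker activating capacity than Jun, was at 103, 105, 142 and 105 CPM in LowAhR and at 158, 153, 173 and 182 CPM in LowAhR+AD+BJ. These groups did not overlap, but the difference of 0.55 ± 0.26 on the log2 scale did not pass (edgeR adjusted p = 0.221).

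Jund, the most constitutively expressed Jun gene, stood at 164, 99.1, 174 and 166 CPM in LowAhR+AD and at 72.9, 78.5, 114 and 105 CPM in LowAhR+AD+BJ. LowAhR+AD replicate 2 was low for its group, and the groups overlapped through it. The log2 fold change was -0.70 ± 0.23 (edgeR unadjusted p = 0.00725, adjusted p = 0.498). The summed Jun family had means of 396 ± 51.7 CPM (SD, n = 4) in Cont, 348 ± 48.5 CPM in LowAhR, 393 ± 66.0 CPM in LowAhR+AD and 328 ± 36.9 CPM in LowAhR+AD+BJ. By median share of fragments, Junb held 33.7% in Cont, 33.9% in LowAhR, 42.0% in LowAhR+AD and 52.3% in LowAhR+AD+BJ. Jund held 37.9%, 41.8%, 38.8% and 28.4% in the same order. Single libraries of Junb ran from 23.4% to 43.7% in Cont and from 30.5% to 49.7% in LowAhR+AD. The Jun shares were also not tested.

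Egr1, a zinc finger transcription factor induced by growth factors and stress, had the highest mean of the 10 genes in Cont. It was at 184, 355, 264 and 286 CPM in Cont and at 124, 182, 94.8 and 68.0 CPM in LowAhR. It was at 246, 120.3, 117 and 170.1 CPM in LowAhR+AD and at 95.9, 149, 128 and 116 CPM in LowAhR+AD+BJ. Every Cont library was above every LowAhR and LowAhR+AD+BJ library, while LowAhR+AD replicate 1 lay among the Cont libraries. LowAhR against Cont gave -1.22 ± 0.31 on the log2 scale (edgeR adjusted p = 0.0846, DESeq2 adjusted p = 0.0122), and without LowAhR replicate 2 the edgeR adjusted p was 0.0323. LowAhR+AD against Cont gave -0.74 ± 0.30 (edgeR adjusted p = 0.0908). Without LowAhR+AD replicate 1 the latter was -1.02 (edgeR adjusted p = 0.02).

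Atf3 (chr1:191170296-191183333, minus strand), a stress-induced ATF family member that can pair with Jun, was at 38.0, 21.4, 29.4 and 10.5 CPM in Cont and at 13.1, 12.5, 18.9 and 6.68 CPM in LowAhR. It was at 6.33, 3.36, 5.44 and 5.06 CPM in LowAhR+AD and at 2.37, 7.94, 5.13 and 2.02 CPM in LowAhR+AD+BJ. All LowAhR+AD libraries were below all libraries without DNCB. Atf3 fell in LowAhR+AD against Cont by 2.29 on the log2 scale (SE 0.49, edgeR adjusted p = 0.00327), in 8 of 8 fits that left out 1 library. Against LowAhR the log2 fold change was -1.34 ± 0.48 (edgeR adjusted p = 0.0748), and without LowAhR replicate 4 it was -1.55 (edgeR adjusted p = 0.0473). LowAhR+AD+BJ against LowAhR gave -1.55 ± 0.49 (edgeR adjusted p = 0.0622), and -1.76 without LowAhR replicate 4 (edgeR adjusted p = 0.0424).

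Ier3 (chr17:35821713-35822911, plus strand), an early gene that modulates survival and NF-kB signalling, was at 153, 178, 211 and 155 CPM in Cont and at 130.4, 148, 144 and 107 CPM in LowAhR. It was at 268, 240.4, 125 and 213 CPM in LowAhR+AD and at 243, 271, 196 and 246 CPM in LowAhR+AD+BJ. All LowAhR+AD+BJ libraries were above all LowAhR libraries, whereas LowAhR+AD replicate 3 lay among the LowAhR libraries. Ier3 rose in LowAhR+AD+BJ against LowAhR by 0.85 ± 0.22 on the log2 scale (edgeR adjusted p = 0.0297). That call held in 1 of 8 fits that left out 1 library, namely without LowAhR+AD+BJ replicate 3, and the others gave edgeR adjusted p-values of 0.0533 to 0.102. LowAhR+AD+BJ against LowAhR+AD gave 0.18 ± 0.22 (edgeR adjusted p = 0.826). For LowAhR+AD against LowAhR the log2 fold change was 0.68 ± 0.22 (edgeR adjusted p = 0.055). That difference passed with DESeq2 (adjusted p = 0.0347), with at least 10 counts in every library (edgeR adjusted p = 0.0432) and without LowAhR+AD replicate 3 (edgeR adjusted p = 0.00984).

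Skin holds several cell types, and in bulk tissue fewer cells of a type and less RNA per cell cannot be told apart. Of 14 marker lists, only some are described here. Over all tested genes, 12.6% were called in LowAhR+AD against LowAhR and 21.8% in LowAhR+AD against Cont. Summed markers of activated keratinocytes were 880 to 1380 CPM in Cont, 526 to 1740 CPM in LowAhR, 11000 to 33000 CPM in LowAhR+AD and 12600 to 32200 CPM in LowAhR+AD+BJ, and 4 of 4 listed genes rose in LowAhR+AD against LowAhR. Summed fibroblast markers were 28500 to 71000 CPM in Cont, 29100 to 55400 CPM in LowAhR, 3970 to 23000 CPM in LowAhR+AD and 11200 to 20500 CPM in LowAhR+AD+BJ, with 3 of 7 lower and 0 higher. Skeletal muscle markers were 14300 to 25500, 18200 to 38000, 748 to 6550 and 5440 to 17600 CPM in the same order of groups, with 21 of 22 lower. Hair follicle markers ran from 33 to 1080 CPM in Cont, where 2 of 20 listed genes were at 0 in all libraries, and from 7750 to 38000 CPM in LowAhR+AD, with 18 of 20 higher than in Cont and 1 of 20 higher than in LowAhR. Adipocyte markers ran from 3550 to 6920 CPM in Cont, 9320 to 13800 CPM in LowAhR and 680 to 4670 CPM in LowAhR+AD. In LowAhR+AD, 8 of 12 were lower than in LowAhR and 3 of 12 lower than in Cont, whose range overlapped. Basal keratinocyte markers, which check that the tissue is skin, summed to 2730 CPM or more in every library. They ran from 2730 to 3730 CPM in Cont and from 2960 to 3610 CPM in LowAhR. With DNCB they were higher without overlap, at 5610 to 10700 CPM in LowAhR+AD and 4990 to 7620 CPM in LowAhR+AD+BJ. In LowAhR+AD against LowAhR, 3 of the 7 listed genes rose and 1 fell. No listed fibroblast, muscle or activated keratinocyte gene was at 0 in all libraries of a group. The part of these shifts in the results for the 10 genes was not tested.

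Other early response genes moved in both directions. Of 40 tested genes of that list, 7 rose and 3 fell in LowAhR+AD against LowAhR (25%, where 12.6% of all tested genes were called), and 8 rose and 8 fell against Cont (40%, where 21.8% were). Their median log2 fold change was 0.087 against LowAhR, beside 0.038 over all tested genes. Sgk1, a serum and glucocorticoid regulated kinase, went from a mean of 28.2 ± 8.09 CPM (SD, n = 4) in LowAhR to 129 ± 134 CPM in LowAhR+AD, a log2 fold change of 2.19 (edgeR adjusted p = 0.00637). LowAhR+AD replicate 1 alone stood at 329.8 CPM, and without it the mean was 62.5 ± 19.1 CPM and the log2 fold change 1.14 (edgeR adjusted p = 0.00985). Plk3, a stress-responsive polo-like kinase, rose by 1.75 (edgeR adjusted p = 0.00228) and Ier5 by 1.46 (edgeR adjusted p = 0.0014). Nr4a1, an orphan nuclear receptor, fell by 2.12 on the log2 scale (edgeR adjusted p = 0.0454), a call that held in 2 of 8 fits that left out 1 library, without LowAhR+AD replicate 1 or 4, with edgeR adjusted p-values up to 0.0948 in the others. Klf6 and Klf4, Krüppel-like factors named after their values were seen, were the other genes of the list that fell, and the call of Klf4 was lost without LowAhR replicate 2, LowAhR replicate 3 or LowAhR+AD replicate 4 (edgeR adjusted p = 0.07, 0.0507 and 0.0633).

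**Figure D4:**
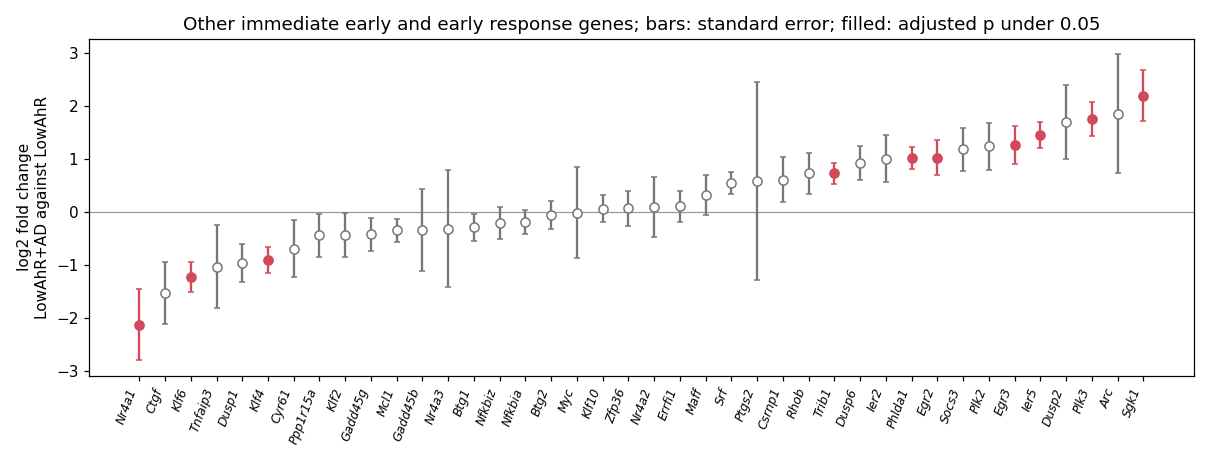
Fitted log2 fold changes in LowAhR+AD against LowAhR with standard errors, over 4 libraries a group, of the 40 tested genes of the list of other early response genes. Filled points have an adjusted p under 0.05, 7 above 0 and 3 below.

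Of 18 tested genes with well-known AP-1 sites, 8 rose and 0 fell in LowAhR+AD against LowAhR (44.4%, where 12.6% of all tested genes were called and 6.42% were higher). Of the 10 that did not pass, 4 had log2 fold changes below 0, the lowest being Vegfa, an angiogenic factor (-1.13, edgeR adjusted p = 0.119). Against Cont the counts were again 8 and 0 (where 21.8% of all genes were called and 12.3% were higher), and the median log2 fold change was 0.96 beside 0.045 over all tested genes. Sprr1b, a cornified envelope protein, rose by 4.33 on the log2 scale (edgeR adjusted p = 0.000148) from 14.8 to 297 CPM. Mmp13, a collagenase, rose by 4.34 (edgeR adjusted p = 0.0226). Without LowAhR replicate 3 the change was 5.22, and without LowAhR replicate 1, LowAhR replicate 2 or LowAhR+AD replicate 4 the call of Mmp13 was lost (edgeR adjusted p = 0.0597, 0.0677 and 0.0786), with a log2 fold change of 3.24 in the last. Timp1, an inhibitor of such enzymes, rose by 3.53 (edgeR adjusted p = 0.00456) and Hbegf, a growth factor for keratinocytes, by 2.42 (edgeR adjusted p = 0.00776). In LowAhR+AD+BJ against LowAhR, 6 of the 18 rose and 0 fell (33.3%, where 6.77% of all genes were called).

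Among 20 bZIP partners and relatives of Fos and Jun, 2 rose and 1 fell in LowAhR+AD against LowAhR (15%, close to the 12.6% called over all tested genes). Cebpb rose by 1.04 on the log2 scale (edgeR adjusted p = 0.0432) and Cebpd had a log2 fold change of -1.27 (edgeR adjusted p = 0.0158). The call of Cebpb held in 3 of 8 fits that left out 1 library, was lost when any one of the LowAhR libraries was left out, and was lost without LowAhR+AD replicate 1, where the log2 fold change was 0.54 (edgeR adjusted p = 0.196). The call of Cebpd was lost without LowAhR replicate 1 (edgeR adjusted p = 0.0529). Cebpb and Cebpd are members of the C/EBP family of inflammatory regulators. Of 28 tested genes of the MAP kinase cascade, which lies upstream of Fos and Jun, 1 rose (3.57%, below that background), Hras, by 1.35 (edgeR adjusted p = 0.0128), and Mapk11 had a log2 fold change of 2.12 that did not pass (edgeR adjusted p = 0.0706). Of 15 heat shock and chaperone genes, listed because tissue handling can move them, 5 rose and 0 fell (33.3%): Hsph1 rose by 1.38, Hsp90aa1 by 1.11, Hspd1 by 0.77 and Hspe1 by 0.74. The call of Hspe1 held in 3 of 8 fits that left out 1 library, and was lost without LowAhR replicate 1, 2 or 3 and without LowAhR+AD replicate 2 or 3 (edgeR adjusted p up to 0.0933). In LowAhR+AD+BJ against LowAhR+AD, 0 genes were called in each of the 5 lists with edgeR, and 0 of them with DESeq2 or limma voom.

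Likeness to each of the 10 genes was measured over the 16 libraries as the root mean square distance of centred log2 CPM. The genes nearest to Fosl1 included Nppb (0.908) and Krt42 (0.947), where the median over all tested genes was 2.33. When the other genes needed at least 10 counts in every library, 1 of the 3 genes nearest to Fosl1 stayed among its nearest 3. Those nearest to Fos were Mrgprb2 (0.705), Tgfbi (0.75) and Pkd2 (0.756), where that median was 1.45. Those nearest to Fosb were Tnxb (0.643), Col1a1 (0.647) and Kctd12 (0.656), where it was 1.66. Among the 10 genes themselves, Fosl2 and Ier3 lay closest, at 0.356, where the medians over all tested genes were 0.787 for Fosl2 and 0.827 for Ier3. The distances were not scaled by how much a gene varies. Genes that vary little therefore lie near one another whether or not they vary together, and distances of different genes cannot be set side by side. The libraries of a group also share depth, treatment and tissue make-up.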

How the data were processed

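Skin RNA of 16 mice, 4 in each of 4 groups, was measured with 1 QuantSeq library per mouse, and groups and replicate numbers were taken from the labels. For each library the authors deposited whole-number counts by gene symbol, not normalized. The submitters' processing notes name Bowtie2, bedtools and mm10, in no stated order, and the rule for counting reads is not given in the sources used here. The libraries carry no molecular identifiers that are given, so limits from counts cover counting error only. Library totals ran from 7080508 to 13467477. Replicates differed by 16.4 to 285 in chi-square per degree of freedom, so each library counted as 1 replicate. 0 columns of per-sample values were left unused.

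Counts were tested in R 4.3.3 with edgeR 4.0.16 (glmQLFit, glmQLFTest, TMM factors) in 1 model of all 16 libraries. Rows were kept by filterByExpr (minimum count 10, minimum total 15), and p-values were adjusted by Benjamini-Hochberg over all 14854 tested rows, with calls at an adjusted p under 0.05. Standard errors come from the fold change and its F statistic. log2 CPM used a prior count of 2. Replicate numbers did not pair the mice (correlations -0.055 to 0.17, and 0 of 6 group pairs above the limit), so no block was used.

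The genes named besides the 10 are those of each fixed list with the largest change among genes called in LowAhR+AD against LowAhR, at most 4 per list, or the 2 with the largest change where fewer than 2 were called, and the 3 genes nearest to each of the 10, of which some are not reported here. The members and lists were chosen with earlier results of these data known, so no p-value is adjusted over a list alone. The alternatives tried were DESeq2 1.42.0, limma voom (3.58.1), RLE or upper-quartile factors, no filter, at least 10 counts in every library, the 8 libraries compared alone, the replicate block, library sizes without muscle, hair and fat markers, and each library left out in turn. Leaving out LowAhR replicate 4 and LowAhR+AD replicate 1 together was added after seeing the data, as was leaving out each library for the named genes of the lists. The tests were also run on simulated counts, for LowAhR+AD against LowAhR alone. No simulated library stood apart as LowAhR+AD replicate 1 did, so that run does not cover such a library. The promoter table held windows for 8 of the 10 genes, and promoter sequence is printed for Fos and Atf3.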

Additional observations from a re-analysis of the deposited data

Results flagged for a closer look

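Of 40 group and gene combinations of 4 libraries, 3 held a library far from the others by Dixon's ratio, and chance alone gives about 1 in 20. Fosl1 was at 1.79 CPM in LowAhR replicate 4, where the nearest library of the group was at 0.271 CPM (ratio 0.849). Junb was at 142.2 CPM in LowAhR replicate 3, where the nearest was at 105.4 CPM (ratio 0.938). Jund was at 99.12 CPM in LowAhR+AD replicate 2, where the nearest was at 164 CPM (ratio 0.866). LowAhR replicate 4 also had the lowest value of its group for 5 of the 10 genes.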

How the results depend on the processing

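Of the alternatives run, 814 values kept their direction and their side of the threshold, 13 lost a call, 30 gained one and 37 changed sign. The number of the 10 genes called in LowAhR against Cont was 2 with DESeq2 and 0 to 1 when each library was left out in turn. For LowAhR+AD against LowAhR it was 3 with DESeq2, 0 with limma voom, 2 with at least 10 counts in every library (where Fosl1 is not tested), 3 with LowAhR replicate 4 and LowAhR+AD replicate 1 both left out, and 0 to 4 over single left-out libraries. For LowAhR+AD+BJ against LowAhR it was 5, 3 and 4 with DESeq2, the strict filter and both libraries left out, and 0 to 3 over single left-out libraries. For LowAhR+AD against Cont it stayed at 3 to 5. With the replicate block, which the check of pairing did not support, it was 0, 1, 4, 0 and 1 in the 5 comparisons, and it changed no call of the 10 genes. The causes were not tested. Over all genes, LowAhR+AD against LowAhR gave 765 calls with only its 8 libraries and 1128 to 2015 over single left-out libraries, and LowAhR+AD+BJ against LowAhR gave 414 to 1469. None of the log2 changes that turned sign had been called. Fosl1 in LowAhR against Cont was -0.10 with limma voom, -0.33 with the replicate block and -1.55 with both libraries left out, and -1.54 to 0.79 over single left-out libraries. Jund in LowAhR+AD was -0.013 against LowAhR with upper-quartile factors, and against Cont -0.039 with upper-quartile factors, -0.014 with limma voom, -0.027 with the block and -0.043 with both libraries left out. Over single left-out libraries Jund ran from -0.14 to 0.097 (LowAhR against Cont), -0.077 to 0.20 (LowAhR+AD against LowAhR) and -0.058 to 0.18 (LowAhR+AD against Cont). In LowAhR+AD+BJ against LowAhR+AD the same range was -0.59 to 0.080 for Fosb, -0.045 to 0.16 for Fosl2, -0.15 to 0.20 for Junb (-0.16 with both libraries left out), -0.67 to 0.025 for Atf3 and -0.0080 to 0.30 for Ier3. Egr1 in LowAhR+AD+BJ against LowAhR was -0.13 to 0.35, and -0.15 with both libraries left out. Depth limits Fosl1 most, with 0 to 15 counts per library outside the DNCB groups.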

Other observations

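Further genes of the list of other early response genes, named here after their values were seen, differed between LowAhR+AD and Cont (n = 4 each). Dusp1, a phosphatase of MAP kinases, went from a mean of 109.7 CPM to 38.1 CPM (log2 fold change -1.53 ± 0.36, SE). Zfp36, which destabilises short-lived messenger RNA, went from 62.1 to 32.3 CPM (-0.94 ± 0.33), and Nfkbia, the inhibitor of NF-kB, from 576 to 288 CPM. Klf4, a factor of epidermal barrier formation, went from 981 to 329 CPM (-1.58 ± 0.25). In the same comparison Dusp2, another such phosphatase, went from 6.06 to 42.5 CPM (2.81 ± 0.73) and Egr3 from 27.7 to 63.1 CPM (1.19 ± 0.36). All 6 passed an edgeR adjusted p under 0.05, but Egr3 did not without LowAhR+AD replicate 1 (log2 fold change 0.72, edgeR adjusted p = 0.0997) or without Cont replicate 1 (edgeR adjusted p = 0.0696), and Zfp36 passed in 2 of 8 fits that left out 1 library, without Cont replicate 1 or LowAhR+AD replicate 1. In LowAhR, without DNCB, the mean was already 30.8 CPM for Zfp36 and 327 CPM for Nfkbia. For LowAhR+AD against LowAhR, Zfp36, Nfkbia, Dusp1 and Dusp2 did not pass (edgeR adjusted p = 0.918, 0.628, 0.0857 and 0.118). Klf4 and Egr3 did (edgeR adjusted p = 0.023 and 0.0273), each in 5 of 8 fits that left out 1 library. Egr3 did not pass there without LowAhR+AD replicate 1 (log2 fold change 0.81, edgeR adjusted p = 0.0985). Nor did Egr3 pass without LowAhR replicate 1 or 2 (edgeR adjusted p = 0.0627 and 0.0884).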
